A study of Homo sapiens with 12 samples.

Results

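Transcript levels of 10 markers and factors of the epithelial-mesenchymal transition (EMT) were examined in MCF10-A, an established line of human mammary epithelium that forms no tumours and grows with basal features. The 10 genes were taken by name out of 57133 gene names in the count tables: FN1, VIM, MCAM, CDH2, CDH1, CDH3, EPCAM, SNAI2, ZEB1 and TWIST1. All 10 had enough counts to be tested, as did 14504 genes in all. Every culture carried a transgene under a doxycycline-inducible promoter, was grown with horse serum, EGF, insulin, hydrocortisone and cholera toxin, received 50 ng/ml doxycycline, and was collected at day 5. The transgene encoded mVenus fused to the cyclin-dependent kinase inhibitor p16, mVenus fused to the inhibitor p21, or the fluorescent protein mVenus alone. One set of p16 cells received Torin2, which inhibits the kinase mTOR, at 100 nM from 24 hours after doxycycline, and all other cells received the solvent DMSO. The groups are called p16 with Torin2, p21, p16 and mVenus. Each held 3 libraries, which the series describes as biological replicates. All groups received doxycycline, so no group without it was compared, Torin2 was given to p16 cells only, and the sources used here do not say whether each line was a single clone.

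EMT is a change of state in which epithelial cells lose junctions and apical-basal polarity and gain a migratory, matrix-producing character. E-cadherin (CDH1) and EPCAM mark the epithelial state, while N-cadherin (CDH2), vimentin (VIM) and fibronectin (FN1) mark the mesenchymal one, and a basal breast line such as MCF10-A carries markers of both. The transcription factors of the SNAI, ZEB and TWIST families bind E-box DNA elements and repress epithelial genes, the miR-200 and miR-205 microRNAs oppose the ZEB factors, and TGF-beta is the best known inducer of the program.

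The 12 libraries held 13168749 to 18321114 counts. Libraries of 1 group had correlations of log2 CPM of 0.992 to 0.994 and differed by more than sampling noise. Each was counted as a replicate because the series describes them so. The labels do not say whether replicates came from separate inductions, and the excess over sampling noise cannot show it. CDKN2A, the gene of p16, had 0 counts in all 12 libraries and gave no check of the labels, because a transgene's reads may go uncounted there. CDKN1A, the gene of p21, stood at 259 ± 17 CPM with Torin2, 889 ± 16.5 in p21, 570 ± 30.1 in p16 and 712 ± 13 in mVenus cells. It thus varied among groups without the p21 transgene too, whose reads may likewise go uncounted, and is no firm check of the p21 label. MKI67, a proliferation marker, stood at 51.6 ± 0.647 CPM in p16 cells with Torin2, 3.35 ± 0.425 in p21, 10.1 ± 0.427 in p16 and 331 ± 15.6 in mVenus cells. Mitochondrial transcripts took 5.66% to 6.98% of counts in the 9 libraries of the other groups and 3.85% to 3.91% in mVenus cells, and their part in the differences below was not tested. Ribosomal protein transcripts took 6.05% to 6.08% of counts in the Torin2 libraries and 2.48% to 3.36% in the others. All 8 basal epithelial markers, among them KRT5, KRT14 and TP63, were above 0.5 CPM in every group. Their sum was 11911 to 12217 CPM with Torin2, 8888 to 9049.5 in p21, 14359 to 15195 in p16 and 8350.1 to 8661 in mVenus cells, and 5 of the 8 rose and 2 fell in p16 over mVenus cells. KRT14 stood at 36.4 ± 3.92 CPM with Torin2, 30.4 ± 2.79 in p21, 466 ± 16.3 in p16 and 25.6 ± 2.41 in mVenus cells. TP63 stood at 77.9 ± 6.36 CPM with Torin2, 4.45 ± 0.596 in p21, 37.3 ± 2.16 in p16 and 5.18 ± 0.453 in mVenus cells.

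The unit of levels is CPM, in which counts are brought to a common library size by TMM, and a ± after them is an SD over 3 libraries. A fold change is on the log2 scale with its SE from edgeR's quasi-likelihood test, and a gene is said to have risen or fallen where its p, adjusted by Benjamini and Hochberg over all 14504 genes, was under 0.05. The p16 and p21 comparisons share the mVenus libraries, and the Torin2 comparison shares the p16 libraries with the first, so their values are set side by side only.

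In p16 cells the mesenchymal members were lower than in mVenus cells and the epithelial cadherins were higher. FN1 and MCAM fell most, by 39.5-fold and 52.1-fold, VIM and CDH2 fell about equally, by 4.06-fold and 4.08-fold, and CDH1 rose 2.19-fold. Of the 10 genes, 3 rose and 7 fell, with a median log2 fold change of -0.98 against -0.0036 over all genes tested. Changes were common in this comparison, since 30.9% of all genes tested rose and 32.8% fell, and the libraries of the 2 groups did not overlap for 65.9% of them.

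In p21 cells the same mesenchymal markers were lower than in mVenus cells by less, and CDH1 and CDH3 were not detectably different. MCAM fell 5.99-fold and VIM 2.08-fold, while FN1 fell 1.54-fold. ZEB1, a repressor of epithelial genes, rose 2.09-fold, and EPCAM fell 1.29-fold. Of the 10 genes 1 rose, 6 fell and 3 were not called, where 56.4% of all genes were called either way, with a median log2 fold change of -0.43 against -0.0037 over all genes, of which 28.2% rose and 28.3% fell. Libraries of p21 and mVenus cells did not overlap for 64.4% of all genes.

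Torin2 in p16 cells went with higher FN1, VIM and SNAI2 and with lower CDH1, CDH3 and EPCAM than in p16 cells with DMSO. FN1 rose 9.14-fold, SNAI2 4.98-fold and VIM 3.42-fold, while CDH1 fell 1.81-fold. MCAM and CDH2, which were low in p16 cells, showed no detectable difference. Of the 10 genes 5 rose, 3 fell and 2 were not called, where 59.3% of all genes were called, with a median of 0.23 against 0.023 over all genes, of which 30.3% rose and 29.0% fell, and for 62.0% the libraries did not overlap. The Torin2 libraries also stood apart in their share of ribosomal protein transcripts, given above, and its part in these differences was not tested. As bulk RNA was measured, fewer cells of a type and less RNA per cell cannot be told apart in any of these values.

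**Figure D1:**
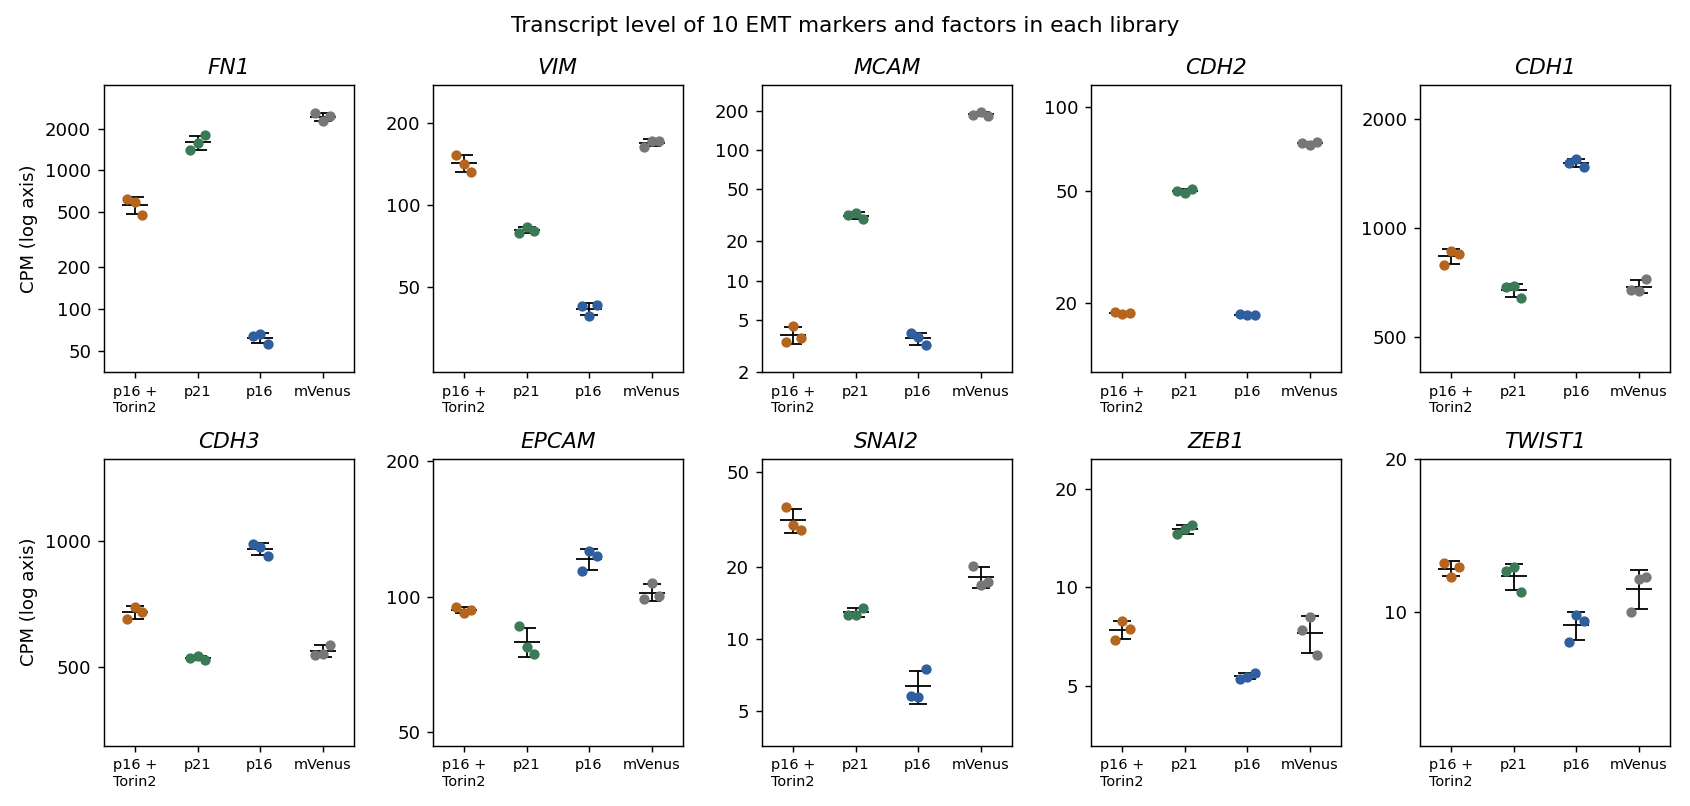
TMM-scaled CPM of each of the 10 genes (log axis, a range of its own per panel) in p16 cells with Torin2, p21, p16 and mVenus cells; points are the 3 libraries of a group, and bars show mean ± SD. FN1 and VIM are lowest in p16 cells, MCAM and CDH2 are low in p16 cells both with and without Torin2, and CDH1, CDH3 and EPCAM are highest in p16 cells.

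FN1 encodes fibronectin, a secreted glycoprotein of the extracellular matrix that cells bind through integrins (chromosome 2, 215360440 to 215436172, minus strand, GRCh38). It had 623, 592 and 477 CPM in p16 cells with Torin2, 1411, 1567 and 1790.4 in p21 cells, 63.7, 65.4 and 55.9 in p16 cells, and 2584, 2280.3 and 2457 in mVenus cells. The 4 groups did not overlap: mVenus libraries were highest, then p21, then p16 with Torin2, and p16 libraries were lowest by a wide margin. The p16 difference from mVenus was -5.31 ± 0.10 (adjusted p = 1.14e-19) and the p21 difference was -0.62 ± 0.08 (adjusted p = 1.59e-06). Set directly against p16 cells, p21 cells were 4.69 ± 0.10 higher (adjusted p = 1.40e-18). With Torin2, FN1 was 3.19 ± 0.10 above p16 cells (adjusted p = 2.83e-16), and its value against mVenus cells was -2.11 ± 0.08 (adjusted p = 1.15e-14). The 3 libraries of p16 cells held 826 to 1021 FN1 counts, so counting error is small beside these differences.

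The FN1 promoter is shown because FN1 differed between all 4 groups. The stretch runs from position -184 to -105 relative to the RefSeq start (chr2:215436173-215436252, minus strand, RefSeq promoter table, GRCh38.p14), and capitals mark a cyclic AMP response element (TGACGTCA), a CCAAT box (CCAAT) and GC boxes (GGGCGG, overlapping).
FN1: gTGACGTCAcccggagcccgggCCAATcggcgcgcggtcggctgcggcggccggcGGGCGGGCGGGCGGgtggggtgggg
Motifs were searched on both strands in the 250 bases before the start, and the set was chosen with these sequences in view. Over 35116 such windows, 1.65% held the cyclic AMP response element, 32% a CCAAT box and 42.6% a GC box. A match of letters is a description of the sequence and no evidence that a factor bound there.

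VIM encodes vimentin, an intermediate filament protein of mesenchymal cells that basal breast lines also make (chromosome 10, 17228259 to 17237593, plus strand). It had 153, 142 and 132 CPM in p16 cells with Torin2, 79.4, 83.5 and 80.6 in p21 cells, 42.8, 39.2 and 43.2 in p16 cells, and 164, 172 and 172 in mVenus cells. The groups did not overlap, and p16 with Torin2 lay closest to mVenus. VIM fell by 2.02 ± 0.05 in p16 over mVenus cells (adjusted p = 2.00e-17) and by 1.06 ± 0.05 in p21 over mVenus cells (adjusted p = 2.77e-13). Torin2 cells stood 1.77 ± 0.06 above p16 cells (adjusted p = 3.98e-16), which left a difference from mVenus of -0.25 ± 0.05 (adjusted p = 0.000132). The order of the middle groups thus differed from that of FN1: p21 cells had more FN1 and less VIM than p16 cells with Torin2. Per length, VIM stood at 85.4 ± 6.77 TPM for every 100 TPM of FN1 in p16 cells with Torin2, 17.3 ± 1.96 in p21, 229 ± 29.2 in p16 and 23.4 ± 2.06 in mVenus cells. Of the exonic bases of VIM, 24.4% are shared with other genes. The largest overlap is with VIM-AS1 on the opposite strand, which was under 1 CPM on average in every group.

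The VIM promoter is shown for contrast with that of FN1, as both genes were lowest in p16 cells. It covers the 250 bases before the start (chr10:17227991-17228240, plus strand, RefSeq, GRCh38.p14), and its capitals mark a GC box, the only match of the 6 motifs searched. The 6 were the 3 above with CACCTG and TGANTCA and also any E box, CANNTG, which takes in every CACCTG and which 61.8% of windows hold.
VIM: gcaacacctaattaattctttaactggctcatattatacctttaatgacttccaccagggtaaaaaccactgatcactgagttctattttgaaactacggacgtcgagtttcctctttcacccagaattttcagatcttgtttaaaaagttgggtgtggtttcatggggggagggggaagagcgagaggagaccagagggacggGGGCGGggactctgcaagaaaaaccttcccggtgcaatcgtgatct
The other letters searched are not in this window, which says nothing about the factors that bind them.

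MCAM, also called CD146 or MUC18, is a cell adhesion molecule of the immunoglobulin superfamily found on endothelium, smooth muscle and pericytes and linked to EMT in breast cancer cells (chromosome 11, 119308529 to 119321521, minus strand). It had 3.39, 4.46 and 3.61 CPM in p16 cells with Torin2, 31.7, 33.1 and 29.5 in p21 cells, 3.93, 3.69 and 3.18 in p16 cells, and 186, 197 and 182 in mVenus cells. Libraries of p16 cells with and without Torin2 overlapped at the lowest level, and p21 and mVenus cells stood apart from them and from each other. The log2 fold change was -5.70 ± 0.08 for p16 over mVenus (adjusted p = 1.23e-21), -2.58 ± 0.05 for p21 over mVenus (adjusted p = 8.24e-19) and 3.12 ± 0.10 for p21 over p16 (adjusted p = 4.03e-16). For Torin2 over p16 it was 0.08 ± 0.15 (adjusted p = 0.671), with a 95% interval from -0.23 to 0.40. These p16 libraries, with and without Torin2, held 47 to 69 MCAM counts each, so a small effect of Torin2 was not detectable at this depth.

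The MCAM promoter is shown because MCAM fell furthest of the 10 genes in both p16 and p21 cells. It covers the 250 bases before the RefSeq start, inside the longer GENCODE span of the gene but outside its exons (chr11:119317131-119317380, minus strand, RefSeq, GRCh38.p14), and capitals mark an E2 box of the kind that Snail and ZEB factors bind (CACCTG, at position -235), a cyclic AMP response element (at -32) and 5 GC boxes (GGGCGG, or CCGCCC where on the other strand).
MCAM: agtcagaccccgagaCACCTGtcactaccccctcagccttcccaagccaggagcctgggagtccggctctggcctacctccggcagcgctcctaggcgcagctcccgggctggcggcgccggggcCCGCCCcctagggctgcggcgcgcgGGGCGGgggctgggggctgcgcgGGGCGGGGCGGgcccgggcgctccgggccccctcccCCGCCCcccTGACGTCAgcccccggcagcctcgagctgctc
The E2 box letters occur in 17.5% of the 35116 windows.

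Among the classical cadherins, the calcium-dependent adhesion molecules of adherens junctions, E-cadherin and P-cadherin moved one way in p16 cells and N-cadherin the other. CDH1, the E-cadherin of epithelial junctions, had 791, 864 and 845 CPM in p16 cells with Torin2, 684, 691 and 639 in p21 cells, 1505, 1549 and 1469.8 in p16 cells, and 672, 669 and 719.5 in mVenus cells. The p16 libraries were highest, those with Torin2 came next, and p21 and mVenus overlapped. CDH1 rose by 1.13 ± 0.04 in p16 over mVenus cells (adjusted p = 1.71e-15). It fell by 0.86 ± 0.04 with Torin2 relative to p16 (adjusted p = 2.69e-13) and was 0.28 ± 0.04 above mVenus (adjusted p = 4.45e-06). For p21 over mVenus the value was -0.03 ± 0.04 (adjusted p = 0.503), with a 95% interval from -0.12 to 0.05.

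CDH3, the P-cadherin of basal and myoepithelial breast cells, followed CDH1. It had 649.9, 696 and 676 CPM in p16 cells with Torin2, 525, 531 and 518 in p21 cells, 982, 966 and 919 in p16 cells, and 533, 537 and 564 in mVenus cells. The p16 libraries were again highest, and every p21 library lay below every mVenus library by a small margin that did not pass the test (-0.05 ± 0.04, adjusted p = 0.208, 95% interval -0.13 to 0.02). With library totals alone it was -0.13 and passed (adjusted p = 0.00580, edgeR), so this call depends on the scaling. CDH3 rose by 0.81 ± 0.04 in p16 cells (adjusted p = 5.51e-14) and fell by 0.50 ± 0.04 with Torin2 relative to p16 cells (adjusted p = 1.75e-10). CDH3 and CDH1 are neighbours on chromosome 16, in the same direction, with 14608 bases from the end of CDH3 (68636189 to 68722616) to the start of CDH1 (68737225 to 68835548). Across the 12 libraries their log2 CPM had a correlation of 0.99, a description over libraries that share 4 group levels.

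CDH2, the N-cadherin gained in EMT, had 18.5, 18.2 and 18.4 CPM in p16 cells with Torin2, 50.2, 49.2 and 50.8 in p21 cells, 18.2, 18.2 and 18.2 in p16 cells, and 74.3, 73.3 and 74.9 in mVenus cells (chromosome 18, 27950966 to 28177446, minus strand). Every p16 library, with or without Torin2, was below every p21 library, and every p21 library was below every mVenus library. The fold change was -2.03 ± 0.05 in p16 (adjusted p = 3.16e-18) and -0.57 ± 0.04 in p21 over mVenus (adjusted p = 3.48e-10). Torin2 cells and p16 cells differed by 0.02 ± 0.06 (adjusted p = 0.858), with a 95% interval from -0.11 to 0.14, which is narrow beside the change in FN1 in the same libraries. CDH2 and MCAM were thus the members that Torin2 left near the p16 level, and their log2 CPM had a correlation of 0.98 over the 12 libraries.

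Per exonic length, CDH1 was the most abundant of the 3 cadherins in every group. That length covers all annotated transcripts of a gene (6177 bases for CDH1, 6236 for CDH3). The lengths of the transcripts present were not measured, and the order of CDH1 and CDH3 may depend on them. CDH2 stood at 2.76 ± 0.146 TPM for every 100 TPM of CDH1 in p16 cells with Torin2, 9.33 ± 0.539 in p21, 1.51 ± 0.0385 in p16 and 13.5 ± 0.427 in mVenus cells. No library of one group overlapped another in this ratio. CDH3 stood at 80.2 ± 1.09 per 100 TPM of CDH1 with Torin2, 77.5 ± 2.37 in p21, 62.8 ± 1.61 in p16 and 78.6 ± 0.876 in mVenus cells, so this ratio was lowest in p16 cells. These ratios are within a library and do not depend on TMM scaling. TPM themselves carry no TMM factor, and on that scale CDH1 stood at 382 ± 21.6 in p21 and 447 ± 21.2 in mVenus cells. With library totals alone the CDH1 value of p21 over mVenus was -0.10 (adjusted p = 0.0373, edgeR), so its absence of a call in p21 cells rests on the scaling.

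**Figure D2:**
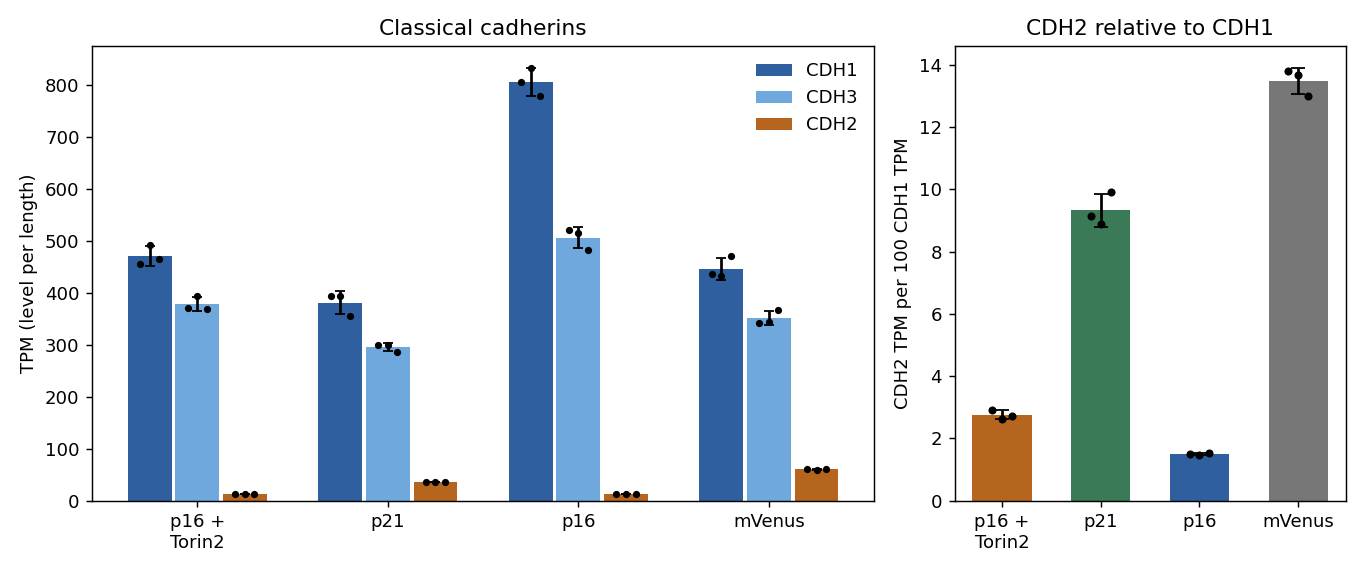
Left, TPM of CDH1, CDH3 and CDH2 in the 4 groups; right, TPM of CDH2 for every 100 TPM of CDH1; bars are means, whiskers SD and points the 3 libraries of a group. CDH1 and CDH3 are tallest in p16 cells, and the ratio of CDH2 to CDH1 is highest in mVenus cells (13.5) and lowest in p16 cells (1.51).

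EPCAM, an epithelial adhesion molecule outside the cadherin family, changed little (chromosome 2, 47345158 to 47387601, plus strand). It had 94.8, 91.9 and 93.2 CPM in p16 cells with Torin2, 86.1, 77.1 and 74.6 in p21 cells, 114, 127 and 123 in p16 cells, and 99.0, 107 and 100.4 in mVenus cells. No groups overlapped, with p16 highest and p21 lowest. EPCAM rose by 0.25 ± 0.05 in p16 over mVenus (adjusted p = 0.000267) and fell in p21 over mVenus (-0.37 ± 0.05, adjusted p = 6.64e-06), and the value of p21 over p16 was -0.61 ± 0.05 (adjusted p = 4.43e-09). The size of the rise in p16 cells depended on the scaling, being 0.14 with library totals alone, while its direction and call were kept in all 13 alternatives (highest adjusted p = 0.0247, edgeR or DESeq2). On the TPM scale EPCAM stood at 159 ± 8.73 in p16 and 163 ± 6.24 in mVenus cells. With Torin2 relative to p16 it fell by 0.38 ± 0.05 (adjusted p = 3.01e-06). The small difference of Torin2-treated cells from mVenus of -0.13 ± 0.05 (adjusted p = 0.0379) lost its call in 9 of 13 alternatives, where the adjusted p ranged from 0.0034 to 0.156 over all of them.

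The 3 transcription factors did not move together. SNAI2 encodes SLUG, a zinc finger repressor of CDH1 that basal breast cells express (chromosome 8, 48917604 to 48921740, minus strand). It had 35.7, 30.2 and 28.7 CPM in p16 cells with Torin2, 12.7, 12.6 and 13.6 in p21 cells, 5.80, 5.73 and 7.52 in p16 cells, and 20.3, 16.9 and 17.3 in mVenus cells. The groups did not overlap, and Torin2 cells were above mVenus cells. SNAI2 was -1.53 ± 0.12 in p16 over mVenus (adjusted p = 4.41e-10), -0.50 ± 0.10 in p21 over mVenus (adjusted p = 0.000339) and 1.03 ± 0.13 in p21 over p16 (adjusted p = 7.15e-07). Torin2 went with 2.32 ± 0.11 over p16 cells (adjusted p = 2.75e-13) and 0.79 ± 0.09 over mVenus cells (adjusted p = 1.44e-07). SNAI2 was the only member called higher with Torin2 than in mVenus among those that were lower in p16 than in mVenus cells.

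ZEB1, a zinc finger and homeodomain repressor of epithelial genes, was highest in p21 cells (chromosome 10, 31318495 to 31529814, plus strand). It had 6.90, 7.89 and 7.47 CPM in p16 cells with Torin2, 14.5, 15.1 and 15.5 in p21 cells, 5.24, 5.34 and 5.49 in p16 cells, and 7.39, 8.11 and 6.21 in mVenus cells. Only the Torin2 and mVenus libraries overlapped. ZEB1 rose by 1.07 ± 0.10 in p21 over mVenus (adjusted p = 9.60e-09), fell by 0.42 ± 0.11 in p16 over mVenus (adjusted p = 0.00308), and p21 cells stood 1.49 ± 0.10 above p16 cells (adjusted p = 1.75e-10). With Torin2 it was 0.47 ± 0.12 above p16 cells (adjusted p = 0.00154). Against mVenus the Torin2 value was 0.05 ± 0.11 (adjusted p = 0.713, 95% interval -0.18 to 0.27). Of the exonic bases of ZEB1, 4.23% overlap other genes, among which the antisense neighbour ZEB1-AS1 has the largest overlap. ZEB1-AS1 stood at 3.56 ± 0.377 CPM with Torin2, 1.48 ± 0.212 in p21, 1.61 ± 0.130 in p16 and 1.23 ± 0.0502 in mVenus cells. Reads were counted without regard to strand.

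TWIST1, a basic helix-loop-helix factor that promotes EMT, varied least of the 3 (chromosome 7, 19020991 to 19117672, minus strand). It had 12.5, 11.7 and 12.3 CPM in p16 cells with Torin2, 12.0, 12.3 and 11.0 in p21 cells, 8.73, 9.88 and 9.62 in p16 cells, and 10.0, 11.6 and 11.7 in mVenus cells. All p16 libraries were below the others, while the other 3 groups overlapped their neighbours. The fall in p16 over mVenus (-0.24 ± 0.09, adjusted p = 0.0309) lost its call in 6 of 13 alternatives, where the adjusted p ranged from 0.0030 to 0.209, and leaving out replicate 2 or 3 of mVenus or replicate 1 of p16 sufficed to lose it. TWIST1 was 0.37 ± 0.09 higher with Torin2 than in p16 cells (adjusted p = 0.00167) and 0.32 ± 0.09 higher in p21 than in p16 cells (adjusted p = 0.00614). In p21 over mVenus the difference was 0.09 ± 0.09 (adjusted p = 0.435, 95% interval -0.10 to 0.27).

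**Figure D3:**
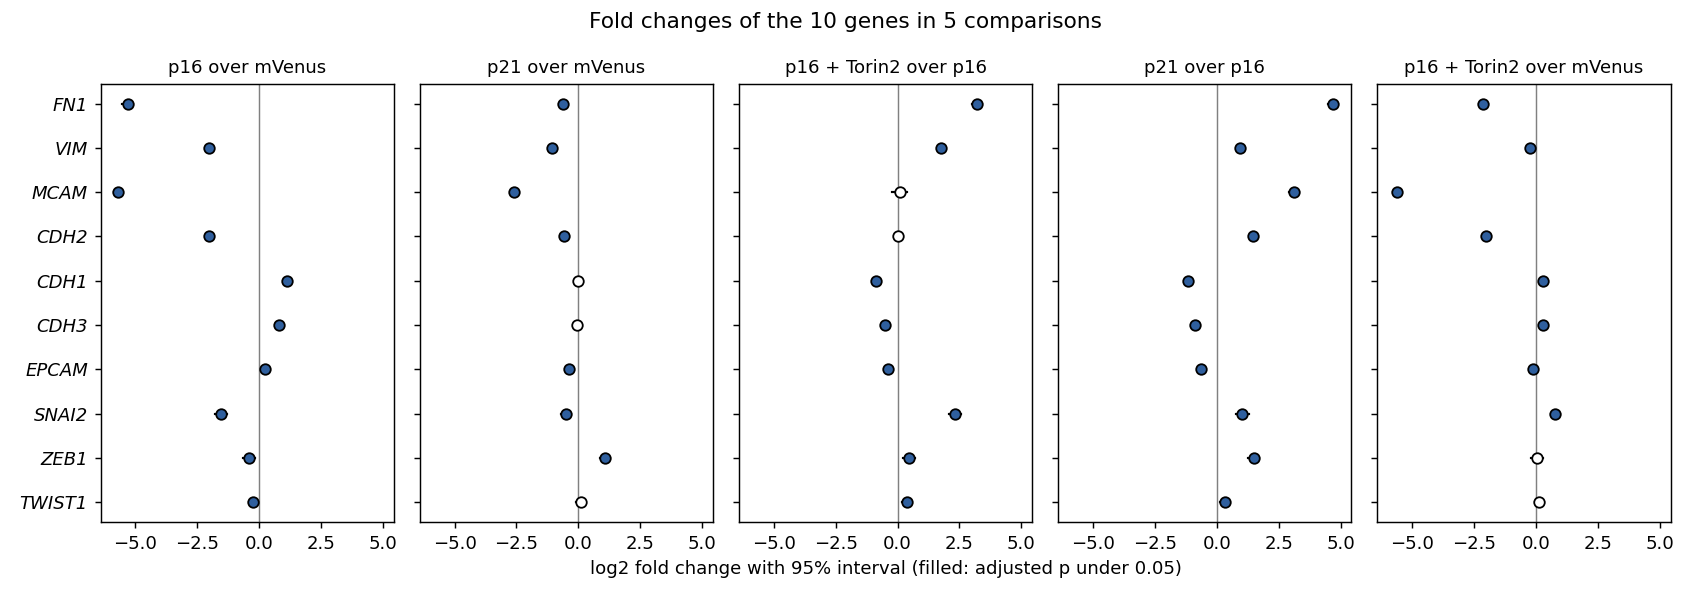
Log2 fold changes of the 10 genes in 5 comparisons, with 95% intervals; filled points have an adjusted p under 0.05 (edgeR's quasi-likelihood test). All 10 genes are filled for p16 over mVenus and for p21 over p16, and MCAM and CDH2 are open near 0 for Torin2 over p16.

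Set directly against p16 cells, p21 cells had higher levels of all 4 mesenchymal markers and of all 3 factors, and lower levels of CDH1, CDH3 and EPCAM. All 10 genes passed the test, 7 higher and 3 lower, where 27.2% of all genes were higher and 27.2% lower, 54.3% in all. The p21 and p16 libraries did not overlap for any of the 10, nor for 58.9% of all genes. The cadherin values were -1.17 ± 0.04 for CDH1 (adjusted p = 2.22e-15), -0.87 ± 0.04 for CDH3 (adjusted p = 3.90e-14) and 1.46 ± 0.05 for CDH2 (adjusted p = 2.23e-15). VIM was 0.96 ± 0.06 higher (adjusted p = 1.62e-11).

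Against mVenus, p16 cells with Torin2 had low MCAM and CDH2, with -5.62 ± 0.08 for MCAM (adjusted p = 1.29e-21) and -2.01 ± 0.05 for CDH2 (adjusted p = 4.43e-18). CDH3 was 0.31 ± 0.04 higher (adjusted p = 2.22e-07). Of the 10 genes 3 rose, 5 fell and 2 were not called, against 31.2% of all genes higher and 36.1% lower, 67.4% in all, and 71.2% with libraries that did not overlap. No group differs from mVenus by Torin2 alone, so the effects of p16 and Torin2 cannot be separated in that comparison.

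Other genes of the program were read from lists. Their counts stand beside the shares of all genes called either way. These shares were 63.7% for p16 over mVenus, 56.4% for p21 over mVenus and 59.3% for Torin2 over p16. They were 54.3% for p21 over p16 and 67.4% for Torin2 over mVenus. Among 21 tested mesenchymal genes (of 28 listed), 17 fell and 2 rose in p16 over mVenus cells, with a median of -1.30. TAGLN, an actin-binding protein of smooth muscle, stood at 13.3 ± 1.83 CPM in p16 and 222 ± 10.6 in mVenus cells (-4.05 ± 0.07). The members that rose were CD44, the hyaluronan receptor (0.31 ± 0.03), and the ecto-nucleotidase NT5E (0.25 ± 0.05). In p21 over mVenus cells 13 fell and 5 rose, with a median of -0.36. The matrix protein tenascin, TNC, stood at 3.74 ± 0.131 CPM in p21 and 79.5 ± 10.3 in mVenus cells (-4.41 ± 0.11). DCN, the proteoglycan decorin, went the other way, at 109 ± 2.24 CPM in p21 and 10.7 ± 0.988 in mVenus cells (3.34 ± 0.06), as did LOX, a collagen cross-linking enzyme (1.14 ± 0.06).

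DCN also counts among 9 fibroblast and pericyte markers, whose summed level ran from 10.7 to 11.5 CPM with Torin2, 115 to 121 in p21 cells, 9.88 to 11.0 in p16 cells and 23.1 to 23.6 in mVenus cells. In p21 cells COL3A1 was at 0 counts, 4 of the 9 markers were above 0.5 CPM, and DCN made up most of the sum. Of 7 endothelial markers, 1 or 2 were above 0.5 CPM in each group, with a sum of 2.46 to 3.67 CPM with Torin2, 2.17 to 3.01 in p21, 4.61 to 5.07 in p16 and 3.25 to 3.72 in mVenus cells. Of 7 leukocyte markers 1 was above 0.5 CPM in each group, CD14, with CD3E and TYROBP at 0 counts in all 12 libraries. Their sum was 13.5 to 17.0 CPM with Torin2, 20.9 to 24.4 in p21, 34.6 to 38.6 in p16 and 12.9 to 17.6 in mVenus cells, so it was highest in p16 cells. Of 5 markers of hormone-receptor luminal cells 3 were above 0.5 CPM in each group, and all 3 were higher in p16 than in mVenus cells. Their sum was 72.5 to 75.3 CPM with Torin2, 73.7 to 77.8 in p21, 90.3 to 99.9 in p16 and 49.3 to 56.4 in mVenus cells. The endothelial, leukocyte and luminal sums, like that of the basal markers, were highest in p16 cells, where the epithelial cadherins were highest too. The fibroblast and pericyte sum was highest in p21 cells. The part of these sums in the differences was not tested.

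With Torin2, 9 of the 21 mesenchymal genes rose and 6 fell relative to p16 cells, while the median was -0.09, so that count and median differ in sign. AXL, a receptor tyrosine kinase, stood at 59.7 ± 4.10 CPM with Torin2 and 13.4 ± 0.839 in p16 cells (2.16 ± 0.08). S100A4, a calcium-binding protein (-1.51 ± 0.13), and the lysyl oxidase LOXL2 (-0.94 ± 0.09) fell. Against mVenus cells 17 of the 21 were lower with Torin2 and 4 higher, with a median of -1.95, among them SPARC, a collagen-binding matrix protein, at 5.27 ± 0.311 CPM with Torin2 and 60.4 ± 2.05 in mVenus cells. In p21 over p16 cells 15 rose and 4 fell, with a median of 1.09, and FBN1, the microfibril protein fibrillin, stood at 55.0 ± 4.27 CPM in p21 and 2.91 ± 0.412 in p16 cells.

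Fibronectin's receptors and matrix partners, 14 genes all tested, fell with FN1 for the most part: 11 fell and 3 rose in p16 over mVenus cells (median -0.96), and 10 fell and 4 rose in p21 over mVenus cells (median -0.43). TNC and ITGA5 stand in this list and in the mesenchymal one, so the counts of these lists are not separate. The fibronectin receptor subunits ITGA5 and ITGB1 were -1.30 ± 0.04 and -0.31 ± 0.04 in p16 over mVenus cells, named after their values were seen. ITGA5 stood at 313 ± 11.4 CPM with Torin2, 389 ± 9.58 in p21, 239 ± 14.9 in p16 and 587 ± 12.4 in mVenus cells. ITGB1 stood at 978 ± 64.5 CPM with Torin2, 1759 ± 29.2 in p21, 1218 ± 38 in p16 and 1508 ± 32.1 in mVenus cells. Unlike FN1, ITGB1 was thus highest in p21 cells and lowest with Torin2. The matricellular protein thrombospondin, THBS1, stood at 83.9 ± 2.93 CPM in p16 and 534 ± 14.2 in mVenus cells (-2.67 ± 0.06). ITGB8, an integrin subunit that activates latent TGF-beta, rose by 1.51 ± 0.08 in p16 cells. With Torin2, 5 rose and 6 fell relative to p16 cells (median -0.16), among them THBS1 (0.71 ± 0.06) and the epithelial integrin subunit ITGB6 (-0.73 ± 0.06).

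Of 13 genes of the TGF-beta route, all tested, 7 fell and 2 rose in p16 over mVenus cells (median -0.55). In p21 over mVenus cells 5 fell and 3 rose (median -0.11). Over all genes 63.7% and 56.4% were called either way, near the called part of this list. TGFBI, a matrix protein induced by TGF-beta, stood at 251 ± 20.2 CPM in p16, 1070.1 ± 76.5 in p21 and 3942 ± 145 in mVenus cells. The ligand TGFB2 stood at 1.0 ± 0.255 CPM in p16 and 5.43 ± 1.13 in mVenus cells (-2.46 ± 0.22), but at 26.8 ± 0.422 in p21 cells (2.28 ± 0.12 over mVenus). The type II receptor TGFBR2 rose in both, by 0.42 ± 0.03 in p16 and 1.05 ± 0.03 in p21 cells. With Torin2, 7 of the 13 rose and 3 fell relative to p16 cells (median 0.47), TGFBI by 2.43 ± 0.06 and the inhibitory SMAD7, itself a target of the route, by 1.2 ± 0.10.

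Of 13 other transcription factors linked to EMT, 10 could be tested. In p16 over mVenus cells 3 of these rose and 4 fell, and in p21 over mVenus cells 4 rose and 2 fell. Over all genes 63.7% and 56.4% were called either way, near the called part of this list. SOX9 stood at 91.3 ± 4.30 CPM in p16 and 12.5 ± 1.10 in mVenus cells (2.88 ± 0.07). ZEB2, the paralog of ZEB1, stood at 13.3 ± 1.16 CPM in p21 and 4.16 ± 0.782 in mVenus cells (1.66 ± 0.12), and at 1.58 ± 0.162 in p16 cells, so ZEB1 and ZEB2 were both highest in p21 cells. SNAI1, the paralog of SNAI2 and named after its values were seen, averaged at most 1.17 CPM in any group. It stood at 0.0436 ± 0.0377 CPM with Torin2, 0.153 ± 0.0297 in p21, 0.129 ± 0.0597 in p16 and 1.17 ± 0.359 in mVenus cells. Every mVenus library was above every other library, at a level where few reads were counted. With Torin2, 5 rose and 1 fell relative to p16 cells, led by the forkhead factors FOXC2 (1.66 ± 0.13) and FOXQ1 (1.56 ± 0.16).

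Regulators of the epithelial state rose with CDH1 in p16 cells. Of 10 tested transcription and splicing regulators (of 12 listed), 9 rose in p16 over mVenus cells (median 0.78), and the other one was not called. EHF, an ETS factor, stood at 12.3 ± 0.882 CPM in p16 and 1.35 ± 0.191 in mVenus cells (3.20 ± 0.17), and GRHL3, a grainyhead factor, at 113 ± 1.18 in p16 and 29.4 ± 2.98 in mVenus cells (1.95 ± 0.07). In p21 over mVenus cells 5 rose and 2 fell (median 0.03), with ELF3, another ETS factor, lowest of those that fell (-2.32 ± 0.15). With Torin2, 3 rose and 6 fell relative to p16 cells (median -0.35). EHF stood at 0.846 ± 0.171 CPM with Torin2, against 12.3 ± 0.882 in p16 cells (-3.85 ± 0.19). KLF4 (0.53 ± 0.05) and ESRP1 (0.13 ± 0.04) were among those that rose. Against mVenus cells, 7 of the 10 were higher with Torin2 and 1 lower (median 0.79), so most stayed above the mVenus level.

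Among 20 epithelial surface and polarity genes, all tested, 15 rose and 1 fell in p16 over mVenus cells (median 0.81), and 9 rose and 6 fell in p21 over mVenus cells (median 0.10). The tight junction claudin CLDN4 stood at 212 ± 11.8 CPM in p16 and 43.3 ± 4.37 in mVenus cells (2.30 ± 0.08), and the mucin MUC1 at 2367 ± 63.7 in p16 and 691 ± 6.12 in mVenus cells (1.78 ± 0.04). MUC1 was higher in p21 cells too, at 1582 ± 107 CPM (1.19 ± 0.04). With Torin2, 16 of the 20 fell and 2 rose relative to p16 cells (median -0.70), including MUC1 (-1.39 ± 0.04) and the junction scaffold TJP3 (-1.64 ± 0.08), while CLDN4 stayed at 224 ± 22.4 CPM. In p21 over p16 cells 17 fell and 1 rose (median -0.66).

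The partners that bind cadherins were less uniform, with 5 of 10 higher and 3 lower in p16 over mVenus cells (median 0.17). Plakoglobin, JUP, which links cadherins to the cytoskeleton and desmosomes, stood at 1545 ± 60.5 CPM in p16 and 727 ± 24.3 in mVenus cells (1.09 ± 0.04), while beta-catenin, CTNNB1, named after its values were seen, was -0.10 ± 0.03. In p21 over mVenus cells 3 rose and 6 fell (median -0.18), with the adhesion molecule NECTIN1 at 23.8 ± 1.13 CPM in p21 and 60.3 ± 1.27 in mVenus cells. With Torin2, 8 of the 10 fell relative to p16 cells (median -0.26), and the other two were not called. Of 18 other cadherins 5 could be tested, and CDH13, a cadherin anchored by a lipid, stood at 191 ± 3.82 CPM in p21 and 68.3 ± 2.30 in mVenus cells (1.48 ± 0.06).

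**Figure D4:**
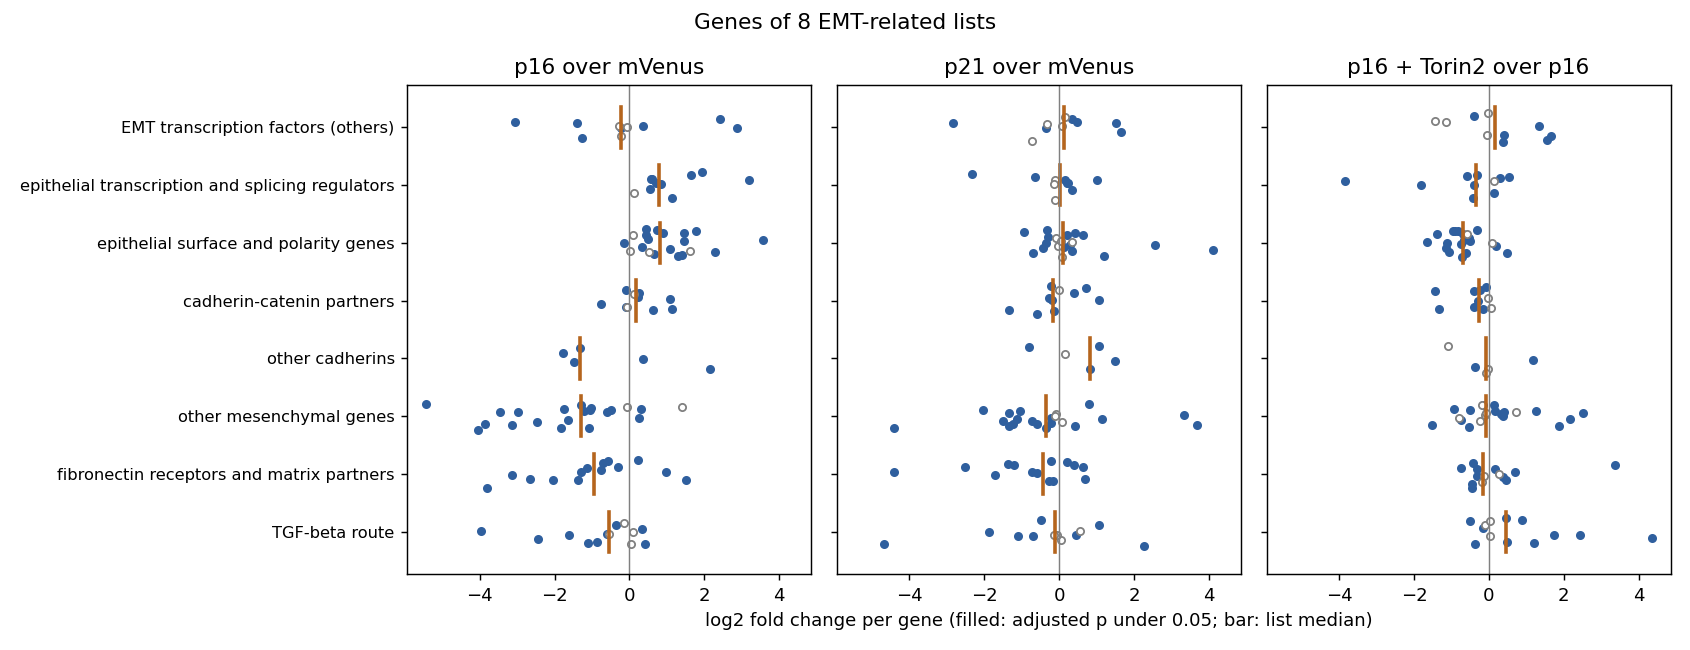
Log2 fold change of each tested gene of 8 lists in 3 comparisons, named above each panel; filled points have an adjusted p under 0.05 and the bar is the list's median. For p16 over mVenus the 2 epithelial lists lie mostly right of 0 (medians 0.78 and 0.81) and the mesenchymal list mostly left (median -1.30), and for Torin2 over p16 the surface and polarity list lies mostly left (median -0.70).

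The genes whose pattern was most like FN1 over the 12 libraries, among 10267 with a mean of at least 5 CPM, were LRP1 (Pearson r of log2 CPM 0.996), FAM114A1 (0.996), AFAP1 (0.992), PARD3 (0.991) and SYDE1 (0.990). LRP1, an endocytic receptor, stood at 69.8 ± 4.10 CPM with Torin2, 114 ± 3.96 in p21, 33.1 ± 2.47 in p16 and 127 ± 3.46 in mVenus cells. The genes most like CDH1 were TNFRSF21 (0.995), CRABP2 (0.992), CTNNBIP1 (0.990), KRT17 (0.988) and CDH3 (0.987). KRT17, a basal keratin, stood at 3110.2 ± 114 CPM with Torin2, 2186 ± 17.1 in p21, 5441 ± 166 in p16 and 2423 ± 90.7 in mVenus cells. FN1 and CDH1 themselves had a correlation of -0.98, VIM and SNAI2 of 0.89, and EPCAM and ZEB1 of -0.90. All are descriptions over 12 libraries that share 4 group levels.

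The host genes of 2 microRNAs that oppose ZEB1 were looked up after the other values were seen. MIR200CHG, the host of miR-200c, stood at 4.34 ± 0.991 CPM with Torin2, 6.24 ± 0.417 in p21, 10.6 ± 1.19 in p16 and 2.61 ± 0.783 in mVenus cells. It rose by 2.05 ± 0.18 in p16 (adjusted p = 2.72e-09) and by 1.29 ± 0.19 in p21 over mVenus cells (adjusted p = 8.06e-06), and was -1.29 ± 0.16 with Torin2 relative to p16 (adjusted p = 1.02e-06). MIR205HG, the host of miR-205, stood at 468 ± 12.3 CPM with Torin2, 207 ± 3.35 in p21, 237 ± 14 in p16 and 37.4 ± 1.45 in mVenus cells, highest with Torin2 and lowest in mVenus. It rose by 2.66 ± 0.05 in p16 (adjusted p = 5.01e-20) and 2.46 ± 0.05 in p21 over mVenus cells (adjusted p = 3.64e-19), and by 0.98 ± 0.04 with Torin2 relative to p16 (adjusted p = 3.16e-14). Counts of polyadenylated host transcripts do not measure the mature microRNAs. Their mature sequences follow 5′ to 3′ (RefSeq, GRCh38.p14), with the seed, bases 2 to 8, in capitals.
hsa-miR-200c-3p: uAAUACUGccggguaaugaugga
hsa-miR-205-5p: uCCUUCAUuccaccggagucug
The seeds differ, so they fall in different families. ZEB1 was highest in p21 cells, where both hosts were above mVenus and below p16 cells. For p21 over p16 the values were -0.76 ± 0.16 for MIR200CHG and -0.20 ± 0.04 for MIR205HG. In p16 cells MIR200CHG was highest and ZEB1 lowest. A link between the hosts and ZEB1 was not tested.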

How the data were processed

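Polyadenylated RNA of 12 MCF10-A cultures was sequenced from strand-keeping libraries, per the labels' protocols. One table of counts per library was deposited by the authors. featureCounts 1.6.3 counted reads over GENCODE 29 exons by gene name without a strand option, per the file headers, so reads of genes that overlap cannot be split by strand. The submitters' processing notes name HISAT2, Subread, FastQC 0.11.3, DESeq2 and GRCh38.p7. The authors' deposited comparison tables were not used here.

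Genes were filtered with filterByExpr (14504 kept of 30296 with a count), scaled by TMM and fitted in R 4.3.3 with edgeR 4.0.16, all 12 libraries together (8 residual degrees of freedom). Each contrast had a two-sided quasi-likelihood test, and p-values were adjusted by Benjamini and Hochberg over all genes tested, with a threshold of 0.05. CPM were computed with TMM-scaled library sizes. TPM were computed from counts and the exonic length in the tables, carry no TMM factor and were used to compare genes within a library. Correlations used log2 CPM with a prior count of 2. The code was tested on simulated counts. The p-values measure the spread between cultures described as biological replicates.

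The 10 genes, the 8 lists and the 5 marker lists were chosen with earlier results of these data known. All 10 genes were named in every comparison, and of each list per comparison up to 2 called rises and 2 called falls of largest size, whose higher group averaged 5 CPM or more and whose libraries did not overlap. For FN1 and CDH1 the 5 genes with the highest Pearson r over the libraries were named too. A part of these is described, some genes taken by the rule being not reported here, and the few genes named otherwise are marked. The alternatives were 3 scalings (upper quartile, library totals, DESeq2 size factors), no low-count filter, a replicate block, the DESeq2 1.42.0 Wald test, only the 2 groups compared, and each library left out. The labels do not say whether equal replicate numbers pair libraries, and no pairing was used in the main fit. RefSeq's promoter table held 5 of the 10 genes. Coordinates of genes are those of GENCODE 29 on GRCh38. Figures were drawn with Python 3.11.15 and matplotlib 3.10.9.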

Additional observations from a re-analysis of the deposited data

Results flagged for a closer look

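ZEB1 and EPCAM were the members, of the 10 genes, whose p16 and p21 differences from mVenus cells were both called and ran in opposite directions. ZEB1 was higher in p21 and lower in p16 cells, and the test of the difference itself, p21 over p16, gave a log2 fold change of 1.49 ± 0.10 (adjusted p = 1.75e-10, edgeR's quasi-likelihood test, n = 3 each), with every p21 library above every p16 library. EPCAM was lower in p21 and higher in p16 cells, with a log2 fold change of -0.61 ± 0.05 for p21 over p16 (adjusted p = 4.43e-09, edgeR's quasi-likelihood test, n = 3 each) and every p21 library below every p16 library. The EPCAM rise in p16 over mVenus cells was 0.25, or 0.14 with library totals alone, and on the TPM scale EPCAM stood at 159 ± 8.73 in p16 and 163 ± 6.24 in mVenus cells. Groups of 3 libraries were not screened for outlying samples.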

How the results depend on the processing

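Of 50 log2 fold changes of the 10 genes, 43 were called, and in 13 alternatives each these gave 559 values, of which 544 kept direction and call and 15 kept the direction and lost the call. The 15 belong to TWIST1 in p16 over mVenus and EPCAM in p16 with Torin2 over mVenus. Changes of direction were confined to 7 values of uncalled genes, and their cause was not tested. With library totals alone ZEB1 in Torin2 over mVenus was -0.020, without the low-count filter CDH1 in p21 over mVenus was 0.0091 and CDH2 in Torin2 over p16 was -0.0023, and on leaving out 1 library ZEB1 ran from -0.054 (without mVenus replicate 3) to 0.12, CDH1 from -0.053 to 0.0060 (without mVenus replicate 3; 0.0025 without p21 replicate 3), and MCAM in Torin2 over p16 from -0.045 (without Torin2 replicate 2) to 0.16. Library totals alone also brought CDH1 (-0.10, adjusted p = 0.0373) and CDH3 (-0.13, adjusted p = 0.00580) in p21 over mVenus past the threshold in edgeR. That scaling moved the median of all genes by -0.108 in p16 over mVenus, and the share of calls that were higher to 36.9% from 48.6% there, to 39.6% from 49.9% in p21 over mVenus. Counts of members called stayed within 1 of the main count, except 8 lower with library totals in p21 over mVenus, against 6. Medians of the lists kept their sign in all 13 alternatives in 37 of 40 cases; the exceptions lay within 0.22 of 0. The labels state no pairing by replicate number, so the replicate block is an alternative only. Same-numbered libraries had correlations of deviations of -0.0822 to 0.0754, 7 of 15 highest with their own number, which cannot exclude a pairing. The block left 3 and 7 members called higher and lower in p16 over mVenus, 1 and 6 in p21 over mVenus, and 5 and 3 in Torin2 over p16. Genes of low count such as MCAM in p16 cells limit the detection of small changes.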
